A study of Oryza sativa with 6 samples.

Results

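The microRNAs (miRNAs) described here are the 5 known rice entries of the families miR390 and miR393, taken by family number from 464 known rice entries and 1898 entries in all. They are osa-miR390-5p, osa-miR390-3p, osa-miR393a, osa-miR393b-5p and osa-miR393b-3p, where 5p and 3p name the strand of the hairpin precursor from which the mature RNA is cut. They were read by small RNA sequencing in 6 libraries of rice exposed to the brown planthopper (BPH), an insect that feeds on phloem sap. P15 is a BPH-resistant introgression line that carries BPH15, and PC is 9311, the susceptible line that received the introgression. Plants of each line were sampled after 6 h of feeding (P15-6, PC-6), after 48 h of feeding (P15-48, PC-48) and without infestation (P15-0, PC-0). Each of these conditions had 1 library, made from the pooled tissue of 30 plants, and infested seedlings carried 8 insects each. The sample labels give leaf sheath of plants of 3 weeks with 4 leaves, whereas the methods give stems of seedlings of 2 weeks with 2 leaves. P15 is 1 line, so BPH15 cannot be told apart from other DNA that came with the introgression. The tissue could not be checked against leaf sheath markers, since the table holds miRNAs and no mRNA. The 15 entries of miR2118 and miR2275, which trigger phased small RNAs in rice panicles, summed to 90.6 TPM in P15-6 up to 112 TPM in PC-48, and 2 or 3 of them had 0 reads in each library.

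Both families act on auxin signalling. The 5p strand of miR390 is loaded into ARGONAUTE7 and cuts TAS3 transcripts, which then yield short interfering RNAs against auxin response factors (ARFs), the transcription factors that carry out auxin responses. This pathway was worked out mainly in Arabidopsis. The 5p strand of miR393 targets mRNAs of the TIR1/AFB F-box proteins, the auxin receptors, and in rice these include OsTIR1 and OsAFB2. In Arabidopsis, miR393 is known for its induction by a peptide of bacterial flagellin, and the 3p strand of miR393b, the star strand, represses the SNARE protein MEMB12 through ARGONAUTE2.

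The mature sequences are given as the deposited table writes them, from 5′ to 3′, with T for U. They are shown because the seed, bases 2 to 8 in capitals, and the overlap between entries decide which of the values below are separate measurements.
osa-miR390-5p: aAGCTCAGgagggatagcgcc
osa-miR390-3p: cGCTATCTatcctgagctcc
osa-miR393a: tCCAAAGGgatcgcattgatc
osa-miR393b-5p: tCCAAAGGgatcgcattgatct
osa-miR393b-3p: tCAGTGCAatccctttggaat
MIR393-x: tCCAAAGGgatcgcattgatttt
MIR393-y: tCAGTGCAatccctttgtt
The last pair are entries that the authors matched to miR393 of other plants. osa-miR393a, of 21 nt, equals the first 21 bases of osa-miR393b-5p, of 22 nt, and MIR393-x shares the first 20 bases of osa-miR393b-5p, so these entries have 1 seed. The seed of osa-miR393b-3p occurred otherwise in MIR393-y alone, and the seeds of osa-miR390-5p and osa-miR390-3p occurred in no other entry. osa-miR390-5p begins with A, while the 3 rice entries of miR393 begin with T.

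osa-miR393a had 1811 reads where osa-miR393b-5p had 1878 in P15-6, and 2460 where osa-miR393b-5p had 2549 in PC-0. Over the 6 libraries its count was 95.2% to 97.2% of that of osa-miR393b-5p, a gap of 52 to 102 reads. The pair therefore holds largely the same reads, and osa-miR393a is not a separate measurement. The miR393 guide (the strand that directs silencing) is given below as osa-miR393b-5p.

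Levels are given as TPM, which in this table is the count divided by a library total and scaled up equally in all libraries (1078716 reads in P15-48 up to 1644065 in P15-6). All members are 20 to 22 nt long. Levels of different sequences also depend on how well each is ligated and amplified, which was not tested, so ranks between members are ranks of reads. osa-miR393b-5p ranked 18 to 20 among the 337 distinct known sequences in every library, osa-miR393b-3p 21 to 26, osa-miR390-5p 27 to 33 and osa-miR390-3p 69 to 84. By reads the 3p strand of miR393b was close to its 5p strand, which was not so for miR390. The highest library was 1.66 to 1.81 times the lowest for each member. A bulk library cannot tell fewer cells that hold a miRNA from fewer copies per cell.

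osa-miR390-5p, the TAS3 trigger, had 959 TPM in P15-0, 540 in P15-6 and 591 in P15-48. In PC it had 890 TPM at 0 h, 589 at 6 h and 607 at 48 h. These values rest on 637 to 1367 reads a library. The 4 infested libraries lay close together, from 540 to 607 TPM, and all below the uninfested libraries of both lines. In the order of the 6 levels the only neighbours separated by their counting error were PC-0 and PC-48, at a ratio of 1.47 (95% exact interval 1.34 to 1.61).

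osa-miR393b-5p, the guide against the auxin receptors, had 1761 TPM in P15-0, 1142 in P15-6 and 1579 in P15-48. In PC it had 1897 TPM at 0 h, 1453 at 6 h and 1544 at 48 h. As for miR390, the 4 infested libraries lay below the uninfested ones, with the lowest value in P15-6. The levels of P15-48 and PC-48, and of PC-48 and PC-6, did not differ beyond counting error (ratios 1.02 and 1.06), whereas the other neighbours in the order did (1.08 to 1.27).

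osa-miR393b-3p, the star strand of the same hairpin, did not share this order. It had 1184 TPM in P15-0, 830.3 in P15-6 and 1289 in P15-48, against 972 in PC-0, 1076 in PC-6 and 1434 in PC-48. In PC the uninfested library was the lowest and 48 h the highest, and in P15 the lowest was 6 h. All neighbours in its order differed beyond counting error, by ratios of 1.09 to 1.17. osa-miR390-3p, the star strand of miR390, was the scarcest member, with 165 reads (116 TPM) in P15-0, 122 (74.2 TPM) in P15-6 and 121 (112 TPM) in P15-48. In PC it had 86 reads (64.0 TPM) at 0 h, 104 (82.6 TPM) at 6 h and 115 (89.6 TPM) at 48 h. At this depth no neighbours in its order could be told apart, although its highest and lowest libraries, P15-0 and PC-0, differed.

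**Figure D1:**
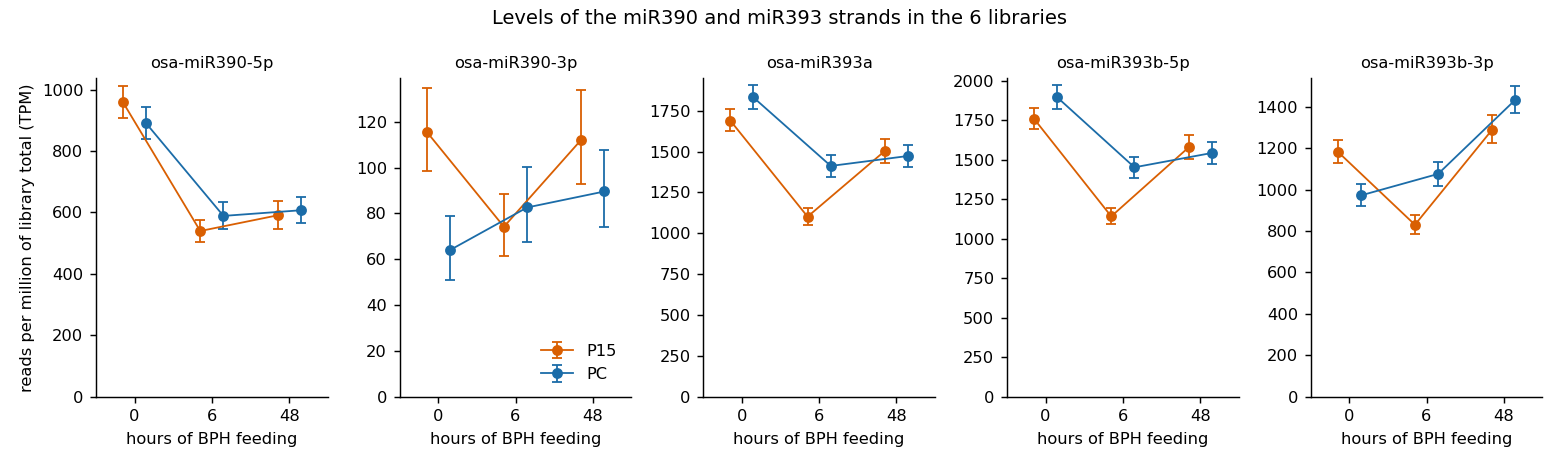
Level of each member in TPM (the count scaled to the library total) against the hours of BPH feeding, with P15 in orange and PC in blue. Each point is 1 library and bars are exact 95% counting intervals. osa-miR390-5p, osa-miR393a and osa-miR393b-5p were lower in the 4 infested libraries than in the uninfested libraries of both lines, and the 3p strands were not.

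This split of the levels was not among the planned comparisons. Whether it held apart from the scaling was looked at over all entries. In TPM, osa-miR390-5p, osa-miR393a and osa-miR393b-5p were lower in every infested library (n = 4) than in either uninfested one (n = 2), and no member was higher without overlap. Of the 281 known entries of the fit described next, 69 (24.6%) were lower in the same way, so the 5p strands were among many. In TPM 11 entries (3.91%) were higher without overlap. With TMM factors, which centre the bulk of the entries, 41 entries (14.6%) were lower without overlap and 36 (12.8%) were higher. The same 3 members were among the lower ones. With median-of-ratios size factors 35 entries (12.5%) were lower and 32 (11.4%) were higher. On this scale osa-miR393b-5p was no longer lower without overlap, since its highest infested value, 1578, passed its lowest uninfested one, 1575. The separation of osa-miR390-5p was wider, at 578 to 675 in infested libraries and 825 to 857 in uninfested ones on that scale.

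The effects of line and feeding were tested over all 6 libraries in 1 additive fit of line and time with edgeR's quasi-likelihood test, in which the other line or the other times stand in for replicates. No member passed in any of the 3 tests. For P15 against PC over the 3 times, 15 of 281 entries (5.34%) passed an adjusted p of 0.05 and 0 of 5 members did. Entries that repeat a sequence count more than once in this share, and 4 entries passed with identical sequences taken once. osa-miR390-3p was the member with the largest estimate, 0.40 on the log2 scale (SE 0.29, 95% interval -0.16 to 0.97, adjusted p = 0.641). osa-miR390-5p was at 0.04 (SE 0.23, -0.41 to 0.49), osa-miR393b-5p at -0.08 (SE 0.21, -0.50 to 0.34) and osa-miR393b-3p at -0.02 (SE 0.22, -0.45 to 0.41). All of these intervals stop short of a line difference of 2-fold, which is 1 on this scale. They rest on a spread that the fit shares between entries, since it had only 2 residual degrees of freedom. A 2-fold difference is thus excluded only if that shared spread holds for these members.

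After 6 h of feeding, 1 of 281 entries (0.356%) passed and 0 of 5 members did. osa-miR390-5p was at -0.41 (SE 0.28, -0.97 to 0.14, adjusted p = 0.486) and osa-miR393b-5p at -0.21 (SE 0.26, -0.72 to 0.31, adjusted p = 0.718). The 3p strands were at 0.15 (SE 0.35) for miR390 and 0.11 (SE 0.27) for miR393b. After 48 h, 6 of 281 entries (2.14%) passed and 0 of 5 members did. osa-miR390-5p was at -0.47 (SE 0.28, -1.02 to 0.09, adjusted p = 0.351), osa-miR393b-5p at -0.07 (SE 0.26, adjusted p = 0.879), osa-miR390-3p at 0.36 (SE 0.35, adjusted p = 0.582) and osa-miR393b-3p at 0.50 (SE 0.27, -0.03 to 1.02, adjusted p = 0.276). None of the 5 members reached an unadjusted p under 0.05 in these tests either, against 35, 30 and 62 of 281 entries for line, 6 h and 48 h. DESeq2 also called 0 of 5 in each, but it called only 11, 0 and 1 of all known entries for line, 6 h and 48 h. The lower osa-miR390-5p after feeding thus had the same direction in both lines and at both times, but was not larger than the spread that the fit assigned to it.

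**Figure D2:**
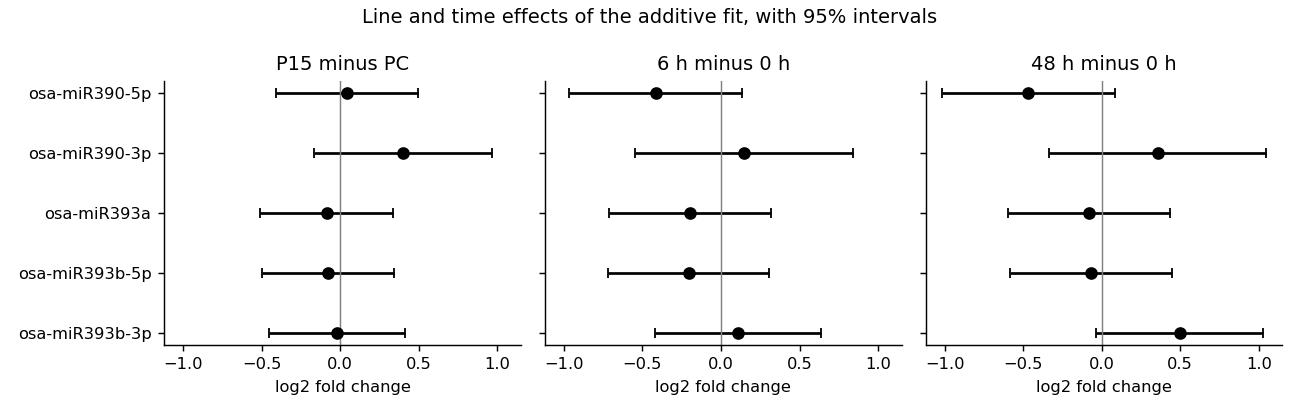
Log2 fold change of each member in the additive edgeR fit, for P15 minus PC over the 3 times (left), 6 h minus 0 h (middle) and 48 h minus 0 h over both lines (right). Points are estimates, bars are 95% intervals, and all 15 intervals include 0.

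Single libraries were compared at the thresholds that the study states, which ask for a change of 2-fold or more in either direction and an unadjusted P below 0.05. With 1 library a side such a call is about libraries and not conditions. None of the 5 members was called in any of the 7 comparisons, in which 5.29% (P15-0/PC-0), 9.32% (P15-6/PC-6), 6.57% (P15-48/PC-48), 13.9% (P15-6/P15-0), 6.78% (P15-48/P15-0), 7.71% (PC-6/PC-0) and 10.8% (PC-48/PC-0) of known entries were. The largest step of osa-miR390-5p in TPM was P15-6/P15-0, at 0.563 times (0.517 to 0.613), and P15-48/P15-0 was 0.616 (0.560 to 0.677). In PC the ratios were 0.661 (0.603 to 0.726) at 6 h and 0.682 (0.622 to 0.747) at 48 h. Between the lines at equal times osa-miR390-5p differed little, with P15 over PC at 1.08 (0.996 to 1.17), 0.916 (0.830 to 1.01) and 0.973 (0.875 to 1.08) at 0, 6 and 48 h.

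osa-miR393b-5p stood at 0.649 (0.611 to 0.689) in P15-6/P15-0 and 0.897 (0.843 to 0.954) in P15-48/P15-0, against 0.766 (0.721 to 0.814) in PC-6/PC-0 and 0.814 (0.767 to 0.863) in PC-48/PC-0. Its star strand osa-miR393b-3p stood at 0.701 (0.653 to 0.754) at 6 h and 1.09 (1.01 to 1.17) at 48 h in P15, against 1.11 (1.03 to 1.20) at 6 h and 1.48 (1.37 to 1.59) at 48 h in PC. Before feeding, the star strands were higher in P15 and the miR393 guide was slightly lower. The P15-0 level over the PC-0 level was 1.81 for osa-miR390-3p (1.38 to 2.37) and 1.22 for osa-miR393b-3p (1.13 to 1.31), while osa-miR393b-5p was at 0.928 (0.878 to 0.981) and osa-miR390-5p at 1.08, with an interval that includes 1. At 6 h both strands of miR393b were lower in TPM in P15-6 than in PC-6, at 0.786 (0.737 to 0.839) for 5p and 0.772 (0.715 to 0.833) for 3p. This difference did not hold under other scalings. The log2 fold changes were 0.002 for 5p and -0.02 for 3p with median-of-ratios factors. With the clean reads as totals they were 0.04 and 0.01.

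Values that involve P15-6 depend on the library total. This library had the largest total behind TPM, while the paper lists the fewest clean reads for it. The median log2 fold change of entries with at least 20 reads was -0.51 in P15-6/P15-0, against -0.11 with TMM factors. In that comparison 0 entries were called higher and 60 lower, and with TMM factors 7 and 22. In P15-6/PC-6 the split was 9 higher and 31 lower, and 11 and 11 with TMM factors. It turned to 30 higher and 9 lower with median-of-ratios factors, and likewise with the clean reads as totals. The direction of most calls between the lines at 6 h thus depended on the scaling. osa-miR390-5p and osa-miR393b-5p had log2 fold changes of -0.42 and -0.22 in P15-6/P15-0 with TMM factors, on the same side as before and below the median. The fall of osa-miR390-5p was then larger in P15-48/P15-0, at -0.54. With median-of-ratios factors it was also larger there, at -0.54 against -0.35 in P15-6/P15-0.

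The ratio of 5p to 3p reads within a library is free of any scaling, since the library total cancels. For miR393b, reads of the 5p strand can also come from the precursor of osa-miR393a, whose sequence it contains, so this ratio may mix the precursors. In P15 the 5p strand of miR390 had 8.28 times the reads of the 3p strand at 0 h (exact 95% counting interval 7.04 to 9.80), 7.27 times at 6 h (6.01 to 8.86) and 5.26 times at 48 h (4.33 to 6.45). In PC the ratio was 13.9 at 0 h (11.2 to 17.5), 7.13 at 6 h (5.80 to 8.83) and 6.77 at 48 h (5.56 to 8.31). For miR393b the strands were closer, with 5p over 3p at 1.49 (1.40 to 1.58), 1.38 (1.28 to 1.48) and 1.22 (1.14 to 1.32) at 0, 6 and 48 h in P15. In PC it was 1.95 (1.83 to 2.09), 1.35 (1.26 to 1.45) and 1.08 (1.01 to 1.15). For both hairpins the ratio was lower in all 4 infested libraries than in both uninfested ones, and PC-0 held the highest ratio of all.

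The mean ratio of miR390 was 6.61 ± 0.92 in infested libraries (SD, n = 4) and 11.1 ± 3.98 in uninfested ones (SD, n = 2). That of miR393b was 1.26 ± 0.137 in infested and 1.72 ± 0.328 in uninfested libraries. An exact two-sided permutation test over the libraries gave p = 0.133 for each (adjusted p = 0.2 over 3 ratios), which is the smallest p that 4 against 2 libraries allow, so this design could not reach 0.05. This grouping of the ratios was chosen after the values were seen. Among 36 known hairpins with at least 120 reads on each strand over the 6 libraries, 3 (8.33%) had a ratio of the major to the minor strand that was lower in infested libraries without overlap, namely miR390, miR393b and miR166d. The median change over the 36 hairpins was 0.13 in P15-6/P15-0, -0.13 in P15-48/P15-0, -0.10 in PC-6/PC-0 and 0.10 in PC-48/PC-0 on the log2 scale, so the strand ratios had no common direction.

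**Figure D3:**
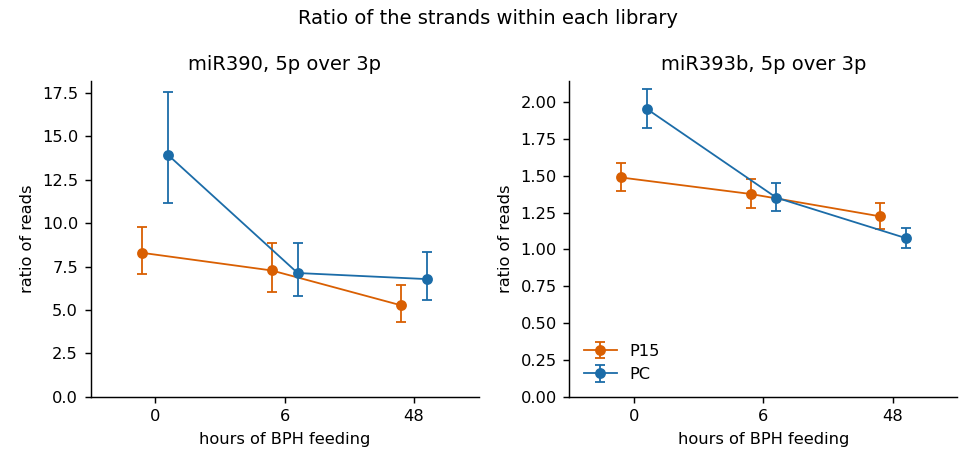
Reads of the 5p strand over reads of the 3p strand in each library for miR390 (left) and miR393b (right), against the hours of BPH feeding, with P15 in orange and PC in blue. Bars are exact 95% counting intervals. The infested libraries lie at 5.26 to 7.27 for miR390 and 1.08 to 1.38 for miR393b, below the uninfested libraries of both lines.

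Compared with 0 h, the ratio of miR390 changed by a factor of 0.878 (0.679 to 1.14) in P15 and 0.512 (0.375 to 0.699) in PC at 6 h, and by 0.635 (0.490 to 0.826) in P15 and 0.487 (0.359 to 0.660) in PC at 48 h. The ratio of miR393b changed by 0.925 (0.842 to 1.02) in P15 and 0.692 (0.627 to 0.763) in PC at 6 h, and by 0.823 (0.748 to 0.905) in P15 and 0.552 (0.503 to 0.605) in PC at 48 h. The change was thus smaller in P15 for both hairpins. Over the 36 hairpins, the ratio at 6 h fell in 11 in P15 (median log2 change 0.13) and in 21 in PC (median -0.10). At 6 h the hairpins as a whole thus also stood higher in P15. At 48 h the ratio fell in 20 in P15 (median -0.13) and in 16 in PC (median 0.10), which is the other way. Set against counting error alone, the difference between the lines (P15 minus PC, log2) was 0.42 (SE 0.099, adjusted p = 7.02e-05 over 6 tests) at 6 h and 0.58 (SE 0.097, adjusted p = 1.49e-08) at 48 h for miR393b. For miR390 it was 0.78 (SE 0.29, adjusted p = 0.0136) at 6 h and 0.38 (SE 0.29, adjusted p = 0.214) at 48 h. These 4 differences share the uninfested libraries, which already differed, since the ratio in P15-0 was 0.596 times that in PC-0 for miR390 (0.448 to 0.787) and 0.762 times for miR393b (0.695 to 0.836). Counting error leaves out the spread between plants and between library preparations, so these p-values compare libraries only.

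**Figure D4:**
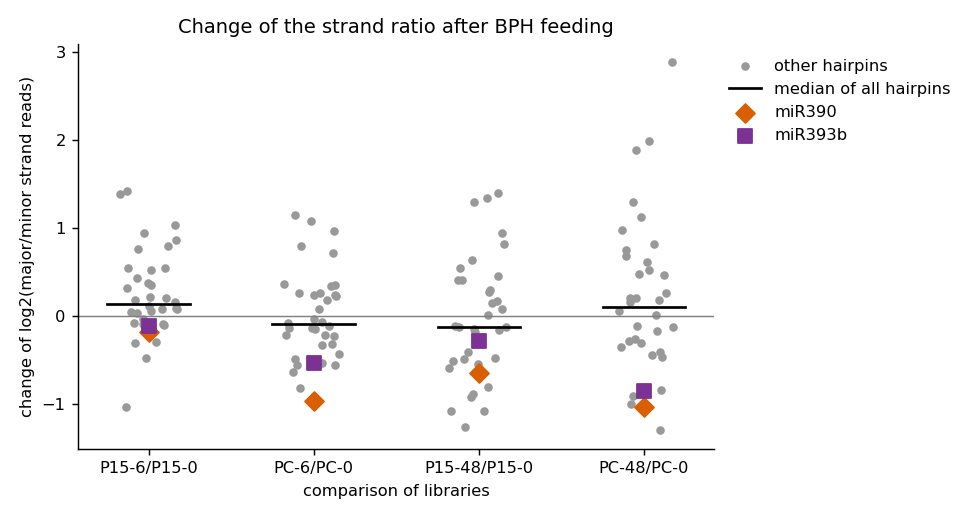
Change after feeding in the log2 ratio of major to minor strand reads, for 36 known hairpins in each comparison of an infested library with the uninfested library of its line. Diamonds are miR390, squares miR393b, grey points the other hairpins, and the line is the median of all 36, between -0.13 and 0.13.

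The 5p strands were also set against each other. osa-miR390-5p had 0.544, 0.472 and 0.374 times the reads of osa-miR393b-5p in P15-0, P15-6 and P15-48, against 0.469, 0.405 and 0.393 times in PC-0, PC-6 and PC-48. The infested libraries overlapped the uninfested ones narrowly, at 0.374 to 0.472 against 0.469 to 0.544 (exact two-sided permutation p = 0.267, adjusted p = 0.267 over 3 ratios). In both lines the TAS3 trigger was lower relative to the receptor guide after feeding. The change by 48 h differed between the lines by -0.29 on the log2 scale (P15 minus PC, counting SE 0.115, adjusted p = 0.0185), and by 0.01 at 6 h (SE 0.11, adjusted p = 0.951).

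How far the lines differed in their response was also read from the levels, as the log2 change in P15 minus that in PC with counting error only. At 6 h 122 of 250 entries (48.8%) passed an adjusted p of 0.05, and all 5 members did. At 48 h 82 of 242 (33.9%) passed, and osa-miR393b-3p was the 1 member that did. At 6 h the values were -0.66 for osa-miR393b-3p, -1.01 for osa-miR390-3p and -0.23, -0.24 and -0.24 for osa-miR390-5p, osa-miR393b-5p and osa-miR393a, beside a median of -0.24 over all 250 entries. The 5p strands were thus at the median and the 3p strands below it. With TMM factors the 5p strands were at -0.02 to -0.03 and were not called, while osa-miR393b-3p stood at -0.45 and osa-miR390-3p at -0.80, both called. With median-of-ratios factors osa-miR390-3p was at -0.61 and no longer called (adjusted p = 0.0611). On that scale osa-miR393a and osa-miR393b-5p were called in the opposite direction, at 0.16, beside a median of 0.16. osa-miR393b-3p was called at both times under each of these scalings, at -0.44 for 48 h on the library totals.

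The wider auxin list held the 33 entries of miR160, miR167, miR390 and miR393, where miR160 and miR167 target ARF mRNAs directly. Of the reads of the guide strands of the 4 families, miR393 made up 12.8% in P15-6 to 16.9% in P15-48, and miR390 5.35% in PC-48 to 8.09% in P15-0. miR167 took 70.4% to 77.9% and miR160 2.95% to 6.34%. Where entries of miR160 or miR167 shared a sequence, the highest count in each library was taken, and all these shares depend on that rule. In the additive fit 29 entries of the list were tested, and 1 passed, osa-miR167a-3p, the star strand of miR167a, which was lower in P15 (-0.96, SE 0.30, edgeR adjusted p = 0.0280). No entry of the list passed for 6 h or 48 h. The median of the list was -0.08 for the line effect, -0.06 for 6 h and -0.20 for 48 h, against -0.03, 0.01 and 0.06 over all 281 entries. The 29 entries held 17 distinct sequences, and the 10 miR167 guides held 2, so repeats of miR167 weigh in these medians. At 48 h the median was -0.20 for the miR167 guides and 0.42 for the 6 miR160 guides. The call of osa-miR167a-3p was lost with DESeq2 (adjusted p = 0.258), on library totals without TMM (0.395), with identical sequences taken once (0.323) and without PC-0, PC-6, P15-0 or P15-6 (adjusted p of 0.272 to 0.651).

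Between single libraries, the entries of the list that were called were all in the lower direction, at 9 of 32 in P15-6/P15-0, 6 of 32 in P15-6/PC-6, 3 of 33 in PC-48/PC-0, 2 of 33 in P15-0/PC-0 and 1 each in PC-6/PC-0 and P15-48/P15-0. None was called in P15-48/PC-48. The 33 entries held 20 distinct sequences, so a call of 1 sequence can count more than once. Over all entries 13.9% were called in P15-6/P15-0 and 9.32% in P15-6/PC-6. There too most calls were lower, at 60 of 60 in P15-6/P15-0, 31 of 40 in P15-6/PC-6, 31 of 33 in PC-6/PC-0, 41 of 47 in PC-48/PC-0 and 20 of 29 in P15-48/P15-0, but 3 of 23 in P15-0/PC-0. With TMM factors 22 of 29 calls in P15-6/P15-0 and 11 of 22 in P15-6/PC-6 were lower. With median-of-ratios factors, and also with the clean reads as totals, 9 of 39 calls in P15-6/PC-6 were lower. osa-miR160e-5p, a guide against ARFs, had 136 reads in P15-6 and 280 in P15-0, a ratio of 0.421 (0.341 to 0.519), and its log2 fold change fell short of 2-fold with TMM (-0.84), median-of-ratios (-0.76) and clean-read scaling (-0.95). osa-miR167a-3p had 36 reads in P15-6, against 108 in PC-6, a ratio of 0.255 (0.170 to 0.375), and 80 in P15-0, against 172 in PC-0, a ratio of 0.438 (0.332 to 0.575). osa-miR167h-3p had 241 reads in P15-6, against 417 in PC-6, a ratio of 0.442 (0.376 to 0.520), and likewise fell short of 2-fold under the same 3 scalings (-0.97, -0.83 and -0.79 on the log2 scale). osa-miR167d-3p had 56 reads in P15-6, against 120 in PC-6, a ratio of 0.357 (0.255 to 0.495). osa-miR160f-3p, a scarce star strand, had 16 reads in P15-48 and 44 in P15-0, a ratio of 0.481 (0.253 to 0.869), and 9 in PC-48 and 29 in PC-0, a ratio of 0.325 (0.135 to 0.705). Guide strands were 5 of the 9 calls in P15-6/P15-0 and 1 of the 6 in P15-6/PC-6, and the other calls were star strands. No strand of miR390 or miR393 was among them.

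Entries matched to other plants held few further reads of these families. MIR393-x, of 23 nt, had 45.6 TPM in P15-6 up to 70.5 TPM in P15-48, which was 3.14% to 4.46% of the reads of osa-miR393b-5p. MIR393-y, of 19 nt, had 16 to 32 reads a library and equals osa-miR393b-3p over its first 17 bases. MIR390-x and MIR390-y, the entries named for miR390, had 142 and 24 reads over the 6 libraries. No other entry lay within 2 edits of a member. The pattern of MIR393-x over the libraries was not tested.

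The known entries most like each member were ranked by Pearson's r of log2(TPM + 1) over the 6 libraries among 142 entries, as a description, since all points share the library totals. osa-miR390-5p was nearest to osa-miR156b-3p (r = 0.94), osa-miR156g-3p (0.89) and osa-miR399c (0.86). osa-miR393b-5p and osa-miR393a were nearest to osa-miR5144-5p, osa-miR159a.2 and osa-miR167c-5p (0.95 each). osa-miR393b-3p was nearest to osa-miR528-3p (0.96), osa-miR169g (0.94) and osa-miR528-5p (0.94), and osa-miR390-3p to osa-miR166i-5p (0.92), osa-miR528-3p (0.84) and osa-miR396e-5p (0.82). Among the members, r was 0.82 between osa-miR390-5p and osa-miR393b-5p and 0.67 between their star strands, against 0.07 between the strands of miR390 and 0.42 between those of miR393b. Strands of the same kind were thus more alike across the hairpins than the strands of 1 hairpin were.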

How the data were processed

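The authors removed low-quality reads, reads of other RNA classes and reads in exons, introns or repeats, matched the rest to known miRNAs, and deposited the read count of every entry in every library and its TPM. For known miRNAs, neither the aligner nor its mismatch limit is given in the sources used here. TPM equalled the deposited count over a library total within 1.23e-04 percent, and these totals, not the clean reads, were the depth. The deposited table had 0 columns from other samples, and reads can count under several entries. Members and lists were chosen with earlier results of these data known.

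Known rice entries (464) were fitted with edgeR 4.0.16 in R 4.3.3 (quasi-likelihood test, TMM factors on the library totals, default filter, time and line as additive terms, Benjamini-Hochberg adjustment). The fit left 281 entries, a common dispersion of 0.0363 and 2 residual degrees of freedom, with the interaction of line and time as error. Pairs of libraries were compared with edgeR's exact test at dispersion 0 and prior count 0.125, and ratios have exact 95% conditional binomial intervals, which cover counting error only. Differences between responses were tested over entries with at least 10 reads in each of the 4 libraries. Steps were tested on simulated data. Alternatives were other scalings, filters, dispersions, leaving out each library, and DESeq2 1.42.0. Named entries are the members, per comparison the 3 called auxin entries with the largest change and at least 20 reads, the 3 entries most like each member, and related entries with at least 100 reads. Python 3.11.15, numpy 2.4.6, pandas 2.3.3, scipy 1.17.1 and matplotlib 3.10.9 served for the rest.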

Additional observations from a re-analysis of the deposited data

Results flagged for a closer look

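All of the following differ between the lines, P15 minus PC on the log2 scale, in their change from 0 h, by a test with counting error only and 1 library per condition. In level at 6 h they were osa-miR393b-5p (-0.24), osa-miR393a (-0.24, largely the same reads), osa-miR390-5p (-0.23), osa-miR393b-3p (-0.66) and osa-miR390-3p (-1.01), beside a median of -0.24 over the 250 entries tested. In level at 48 h it was osa-miR393b-3p (-0.44). In the ratio of 5p to 3p reads they were miR390 at 6 h (0.78) and miR393b at 6 h (0.42) and 48 h (0.58). In the ratio of osa-miR390-5p to osa-miR393b-5p it was 48 h (-0.29). At 6 h the median log2 change of the strand ratio over the 36 hairpins was also higher in P15 (0.13) than in PC (-0.10). The levels at 6 h move with the scaling of P15-6 and the ratios do not.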

How the results depend on the processing

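In the additive fit and the library pairs, 61 counts of called members were recomputed under other settings, and 60 were 0 as before. In the other, with the clean reads as totals, osa-miR390-5p was called in P15-48/P15-0 (1 of 5 members, log2 fold change -1.08). On that scale 73 of 428 known entries were called in P15-48/P15-0, 72 of them lower. The median log2 fold change there was -0.54 over entries with at least 20 reads. Members called for the difference in response at 6 h were 2 with TMM factors, beside 101 of 250 entries (40.4%). With median-of-ratios factors they were 3 at 6 h, beside 103 of 250 entries (41.2%), and 3 at 48 h, beside 90 of 242 (37.2%). At both times these were osa-miR393b-3p and the overlapping entries osa-miR393a and osa-miR393b-5p, which hold largely the same reads. With median-of-ratios factors the difference at 6 h turned to 0.17 for osa-miR390-5p and to 0.16 for osa-miR393a and osa-miR393b-5p. The miR393 entries were called in this opposite direction, beside a median of 0.16 over all 250 entries. In the additive fit, 14 of 165 values turned direction, none of them called. The line effect of osa-miR390-5p was -0.019 on library totals without TMM, and -0.11 to 0.10 when each library was left out. That of osa-miR393b-3p was 0.027 with median-of-ratios factors and with DESeq2, and -0.29 to 0.063 with libraries left out. The 6 h effects on library totals without TMM were -0.15 for osa-miR390-3p and -0.19 for osa-miR393b-3p, and -0.25 to 0.56 and -0.19 to 0.40 with libraries left out. The 48 h effect of osa-miR390-3p was -0.085 to 0.72 with libraries left out, the lowest without PC-0. Over all entries, 4 passed for line with identical sequences taken once, and 0 to 3 for 6 h and 0 to 9 for 48 h over the alternatives that kept every library. With libraries left out the counts were 9 to 14 for line, 0 to 11 for 6 h and 0 to 32 for 48 h. In the pairs the count for P15-48/P15-0 was 15 to 73, for P15-6/P15-0 28 to 57, for P15-6/PC-6 22 to 39 and for PC-6/PC-0 13 to 33. The cause of these shifts was not tested. The additive fit already compares the lines within each time and the times within each line, and with 1 library per condition no further replicate block could be fitted. With 64.0 to 116 TPM, osa-miR390-3p is the member whose ratios depth limits most.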

Other observations

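The entry MIR390-x, which the authors matched to miR390 of other plants, had 14 (PC-6) to 33 reads (PC-0) a library and 142 in all. It shares a run of 9 bases with osa-miR390-5p, from its own base 1 and from base 2 of osa-miR390-5p. Aligned in this way, MIR390-x then has TA where osa-miR390-5p has GG, and the sequences match again up to the end of osa-miR390-5p. Bases 1 to 18 of MIR390-x, in capitals, are the perfect reverse complement of the first 18 bases of osa-miR390-3p.
MIR390-x: AGCTCAGGATAGATAGCGcct
Its reads were 1.89% to 4.08% of those of osa-miR390-5p. MIR390-y had 24 reads in all and differs from osa-miR390-3p by T4G, with osa-miR390-3p first and positions counted from its 5′ end.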
